A study of Mus musculus with 9 samples.

Results

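The genes described here are 10 rows of the liver expression table: the AP-1 subunit genes Jun, Junb, Jund, Fos and Fosb, and the genes Atf3, Egr1, Dusp1, Ier2 and Ier3, which like most of those subunits belong to the immediate early response. They were chosen by symbol, all 10 were present among the 17442 genes of the table, and 9 of them averaged at least 10 normalised counts across the livers and were tested, among 12937 genes in all. Liver RNA came from male C57BL/6 mice, 4 wild type (Msr1+/+) and 5 labelled Msr1-/-, all of which were kept for 16 weeks on a high fat-cholesterol diet. Msr1 encodes a scavenger receptor of macrophages that binds modified lipoproteins. All 9 mice carried the label NAFLD, so neither a lean control nor an effect of the diet itself enters the comparison, and the labels gave no age, hour of collection or batch. Each mouse gave 1 library, so p-values measure the spread between these mice. In whole liver, fewer cells of a type and less RNA per cell cannot be told apart.

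AP-1 is a family of paired leucine zipper proteins, mostly a Jun protein with a Fos or ATF partner, that bind the DNA sequence TGANTCA and relatives of it. Stress kinases such as JNK phosphorylate Jun, and growth factor, cytokine or stress signals switch on the immediate early genes within minutes and without new protein synthesis. The wave is short: inhibitors made in it, such as the phosphatase DUSP1, switch the kinases off again, and many of the transcripts carry AU-rich elements that speed their decay. In liver, Jun and Fos are known from regeneration after loss of tissue and from injury by fat and inflammation.

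None of the 10 genes differed between the genotypes at an adjusted p under 0.05 in limma, where 1.37% of all tested genes did (86 with a positive and 91 with a negative log2 fold change, Msr1-/- minus wild type). In edgeR and in DESeq2 the count was also 0 of the 9 tested, against 1.43% and 5.98% of all genes, and it stayed 0 in limma without wild type 3 (4.96% of all genes) and without both wild type 3 and Msr1-/- 2 (2.54%). Without adjustment 1 of the 9, Egr1, had a limma p under 0.05, against 15.3% of all tested genes. The genotypes overlapped in each of the 10 genes, whereas they did not overlap in 7.29% of tested genes. Of the 9 tested genes, 3 had a positive and 6 a negative log2 fold change (median -0.32), and 47.3% of all tested genes were negative (median 0.02). The livers differed widely within each genotype, and 1 liver on each side, wild type 3 and Msr1-/- 2, held many of the highest values.

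**Figure D1:**
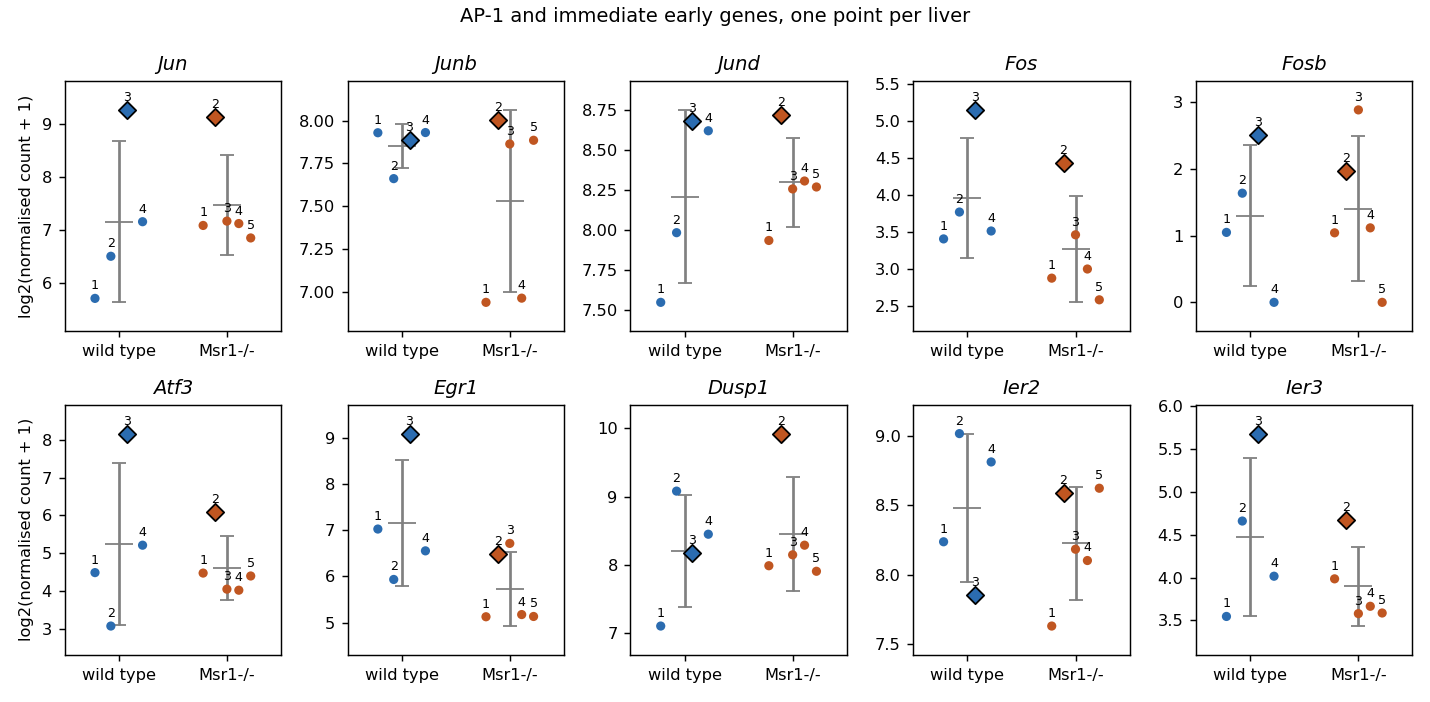
Each panel plots 1 gene as log2(normalised count + 1), with 1 numbered point per liver, blue for the 4 wild-type and orange for the 5 Msr1-/- livers; the grey tick and bars are the mean and SD. The black-edged diamonds are wild type 3 and Msr1-/- 2: wild type 3 tops its genotype in 7 of the 10 panels and Msr1-/- 2 tops its own in 7, and the genotypes overlap in every panel.

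The table allowed between 15006773 and 18238932 reads per liver to be recovered. Msr1 itself was read in each liver, between 194.5 and 460.5 normalised counts in wild type and between 152.7 and 209.1 in the livers labelled Msr1-/-. Its log2 difference was -0.58 (two-sided exact permutation p = 0.0476, the smallest possible being 0.0159), so the summed reads of the gene give no clear check of the label, and genotypes are given as labelled. The summed hepatocyte markers, albumin among them, lay between 1553644, in wild type 3, and 2608454 in the 9 livers. Wild type 3 stood apart in its macrophage, stellate and clock transcripts, described below, and results are therefore also given without it.

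Jun (chromosome 4, 95049034 to 95052222, minus strand, in mm10, as for all positions below) is the founding AP-1 subunit and main nuclear target of JNK. It stood at 51.3, 89.7, 612 and 141 normalised counts in wild type 1 to 4. In Msr1-/- 1 to 5 it stood at 135, 559, 142, 138 and 114. The 2 high livers belong to different genotypes: wild type 3 held 6.50 times the mean of the other 3 wild-type livers, and Msr1-/- 2 held 4.22 times the mean of the other 4 livers of its genotype. The log2 fold change was 0.31 ± 0.66 (SE; 95% interval -1.15 to 1.77; limma adjusted p = 0.89), its sign was negative in edgeR and DESeq2 (-0.06 and -0.04), and it was 1.01 without wild type 3 (limma adjusted p = 0.241). Without both high livers the wild-type mean was 94.1 ± 45.2 (SD, n = 3) and the Msr1-/- mean 132 ± 12.5 (SD, n = 4), a log2 difference of 0.60 with an interval of -0.02 to 1.22 (limma adjusted p = 0.30). An antisense gene, Junos, overlaps Jun on the other strand and had only 3 to 13 reads per liver, 13 in wild type 3 and 8 in Msr1-/- 2.

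Junb (chromosome 8, 84974484 to 84978718, minus strand), a Jun relative often described as a weaker activator, stood at 243, 202, 236 and 243 in wild type 1 to 4 and at 122, 255, 232, 124 and 235 in Msr1-/- 1 to 5. The wild-type livers lay close together, while the livers labelled Msr1-/- split into a low pair (1 and 4) and 3 at the wild-type level. The log2 fold change of -0.32 ± 0.24 (limma adjusted p = 0.598; 95% interval -0.85 to 0.21) was -0.31 without wild type 3, -0.44 without Msr1-/- 2, and -0.17 and -0.18 without Msr1-/- 1 and 4, the low pair. Jund (chromosome 8, 70698949 to 70700616, plus strand), the Jun relative that many tissues express steadily, stood at 186, 252, 410 and 393 in wild type and at 244, 421, 305, 316 and 308 in Msr1-/-. Its genotypes overlapped throughout, and its log2 fold change of 0.09 ± 0.24 had an interval of -0.44 to 0.62 (limma adjusted p = 0.916), which leaves room for folds between 0.738 and 1.53. Junb and Jund lie 45.3 and 31.1 megabases from Msr1 on the same chromosome, and Junb overlaps Prdx2 on the other strand.

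Fos (chromosome 12, 85473890 to 85477273, plus strand), the classic partner of Jun, was scarce, with 5 to 44 reads per liver. It stood at 9.62, 12.7, 34.5 and 10.4 in wild type and at 6.36, 20.6, 10.04, 7.02 and 5.01 in Msr1-/-. Wild type 3 and Msr1-/- 2 were again the highest of their genotypes, and 3 of the 5 livers labelled Msr1-/- lay below the lowest wild-type liver. The log2 fold change was -0.69 ± 0.48 (95% interval -1.75 to 0.37; limma adjusted p = 0.562), and -0.29 without wild type 3 (limma adjusted p = 0.737). Fosb (chromosome 7, 19302696 to 19310051, minus strand), the relative of Fos, had 0 to 7 reads per liver, which is too few for the test across genes. Its levels were 1.07, 2.11, 4.71 and 0 in wild type and 1.06, 2.94, 6.39, 1.17 and 0 in Msr1-/-, and the genotypes could not be told apart at this depth (log2 difference 0.10, two-sided exact permutation p = 0.921).

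Atf3 (chromosome 1, 191170296 to 191218039, minus strand), a stress-induced zipper protein that pairs with Jun and can repress inflammatory genes, had the widest range of the 10. It stood at 21.4, 7.39, 287 and 36.0 in wild type 1 to 4 and at 21.2, 67.5, 15.5, 15.2 and 20.04 in Msr1-/- 1 to 5. The highest liver held 38.9 times the level of the lowest, and both were wild type. The log2 fold change of -0.63 ± 0.85 (95% interval -2.49 to 1.24; limma adjusted p = 0.811) was larger on recovered reads in edgeR (-1.68, adjusted p = 0.401) and DESeq2 (-1.66, adjusted p = 0.44), 0.35 without wild type 3, -0.02 without both high livers and 0.16 with limma array weights. Neither its sign nor its size was stable across these fits.

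Egr1 (chromosome 18, 34859823 to 34864984, plus strand), a zinc finger factor induced through the serum response factor, came nearest to a difference. It stood at 129, 60.1, 546 and 93.0 in wild type and at 33.9, 88.1, 104, 35.1 and 34.1 in Msr1-/-. Here 3 of the 5 livers labelled Msr1-/- lay below the lowest wild-type liver and all 5 below the wild-type median, with Msr1-/- 2 and 3 inside the wild-type range. The means were 207 ± 228 (SD, n = 4) and 59.1 ± 34.3 (SD, n = 5), a 2.69-fold lower level on the log2(value + 1) scale (log2 fold change -1.43 ± 0.59, 95% interval -2.73 to -0.13). The unadjusted limma p was 0.0345 and the adjusted p 0.275, and edgeR and DESeq2 gave adjusted p of 0.183 and 0.135. The 3 wild-type livers other than number 3 had a mean of 94.2 ± 34.6 (SD, n = 3), and with them the log2 difference was -0.78 (limma adjusted p = 0.295). The sign was negative in all 22 alternative fits run for Egr1, whose values ran from -1.83 to -0.66, and none of them gave an adjusted p under 0.135. These fits share livers and some repeat an estimate. Changing the filter kept the main value, and the replicate block gave that of the fit without Msr1-/- 5 (-1.28).

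Dusp1 (chromosome 17, 26505590 to 26562128, minus strand), the phosphatase that switches JNK and p38 off again, had its highest value in Msr1-/- 2. It stood at 137, 541, 287 and 349 in wild type and at 253, 971, 283, 312 and 239 in Msr1-/-. Unlike Jun, Fos, Atf3 and Egr1, it was not high in wild type 3, which lay at 0.839 times the mean of the other 3 wild-type livers, while Msr1-/- 2 held 3.57 times the mean of the other 4. The log2 fold change was 0.25 ± 0.45 (95% interval -0.75 to 1.25; limma adjusted p = 0.868) and turned to -0.12 without Msr1-/- 2. The long gene model of Dusp1 overlaps Ergic1 on the other strand, and since no strand setting is given, reads in the overlap could belong to either. The same limit holds for the overlaps of Jun with Junos and of Junb with Prdx2.

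Ier2 (chromosome 8, 84661331 to 84662852, minus strand, 45.0 megabases from Msr1), a small nuclear protein of the immediate early wave, followed another order. It stood at 300.5, 516, 230 and 448 in wild type and at 197, 384, 289.5, 274 and 393 in Msr1-/-. Wild type 3 was the lowest wild-type liver here, at 0.545 times the mean of the others. The log2 fold change was -0.25 ± 0.26 (limma adjusted p = 0.736), and with 1 liver left out it lay between -0.07 (wild type 2 out, limma adjusted p = 0.93) and -0.46 (wild type 3 out, 0.282). Leaving out both wild type 3 and Msr1-/- 2 made it -0.55 (limma adjusted p = 0.258). Ier3 (chromosome 17, 35821684 to 35822923, plus strand), a regulator of cell survival that NF-kB and stress signals induce, stood at 10.7, 24.3, 50.2 and 15.2 in wild type and at 14.8, 24.5, 10.96, 11.7 and 11.02 in Msr1-/-. It was highest in wild type 3 and in Msr1-/- 2, as Jun, Fos and Atf3 were, and its log2 fold change of -0.58 ± 0.43 (limma adjusted p = 0.597) was -0.18 without wild type 3.

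**Figure D2:**
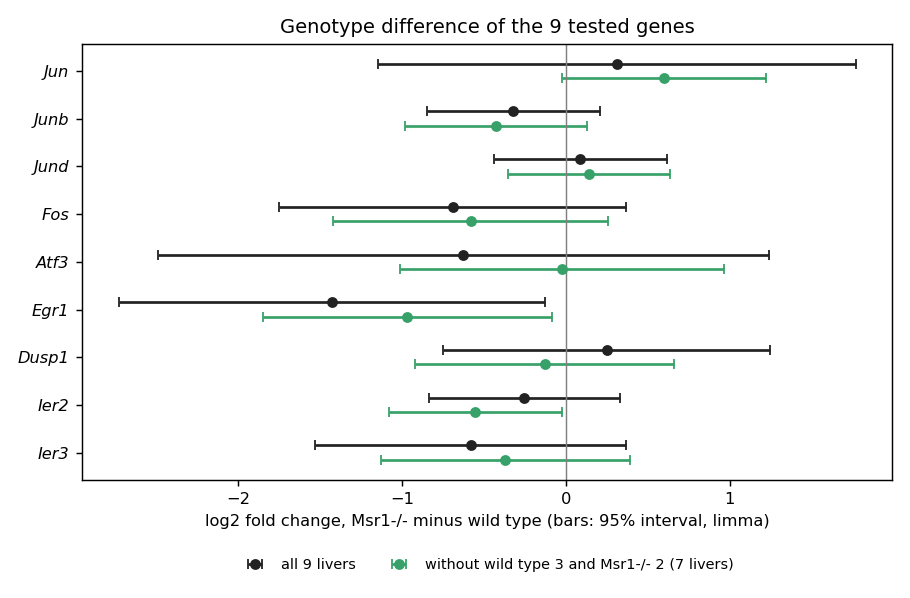
Points are log2 fold changes (Msr1-/- minus wild type, on the log2(value + 1) scale) of the 9 tested genes and bars their 95% limma intervals, black for all 9 livers and green for the 7 livers left without wild type 3 and Msr1-/- 2. With all livers only the unadjusted interval of Egr1 (-2.73 to -0.13) lies clear of 0, and without those livers also that of Ier2 (-1.08 to -0.02) beside that of Egr1 (-1.85 to -0.09); no adjusted p was under 0.05 in either fit.

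Levels were compared between genes as RPKM, recovered reads per kilobase of exon scaled to the read total of the liver. In wild type the order ran from Ier2 (15.3 ± 4.73, SD, n = 4) and Jund (12.2 ± 5.58) through Junb (6.39 ± 1.1), Dusp1 (6.30 ± 2.99), Jun (4.95 ± 6.35), Egr1 (3.22 ± 3.96), Atf3 (2.96 ± 4.71) and Ier3 (1.5 ± 1.26) to Fos (0.483 ± 0.414) and Fosb (0.0215 ± 0.0247). Every neighbour in this order overlapped the next between livers except Fos and Fosb. Compared within each liver, Jund lay above Junb and Ier3 above Fos in all 4 wild-type livers. The other overlapping neighbours kept this order in 3 of the 4. In the livers labelled Msr1-/- Ier2 (11.8 ± 3.16, SD, n = 5) and Jund (11.2 ± 2.32) again led, and 3 gaps separated neighbours without overlap: Jun (4.04 ± 3.63) from Egr1 (0.78 ± 0.469), Ier3 (0.763 ± 0.321) from Fos (0.246 ± 0.163), and Fos from Fosb (0.022 ± 0.0243). Egr1, Atf3 (0.769 ± 0.63) and Ier3 did not differ there beyond their spread. Fos and Fosb had the lowest means of the 10 genes in both genotypes, and Jund the highest mean among the 5 AP-1 subunits.

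The spread between livers of one genotype was wide for these genes. The residual SD of log2 values was above the median of all tested genes (0.291) in each of the 9, and its median over them was 0.758. Atf3 (SD 1.55) exceeded 99.5% of tested genes, Jun (1.22) 98.6%, Egr1 (1.08) 97.6%, Dusp1 (0.831) 94.9%, Fos (0.758) 93.4% and Ier3 (0.698) 91.8%. Ier2 (0.464), Jund (0.413) and Junb (0.41) exceeded 76.7%, 71.1% and 70.7%. Fos and Ier3 are low genes, whose spread also holds counting error. Without wild type 3 and Msr1-/- 2 all 9 still lay above the median of tested genes (0.246), with Atf3 (0.713), Egr1 (0.701) and Dusp1 (0.652) above 96.2%, 95.9% and 94.9%, and Jun (0.47) and Fos (0.307) above 86.1% and 65.0%.

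**Figure D3:**
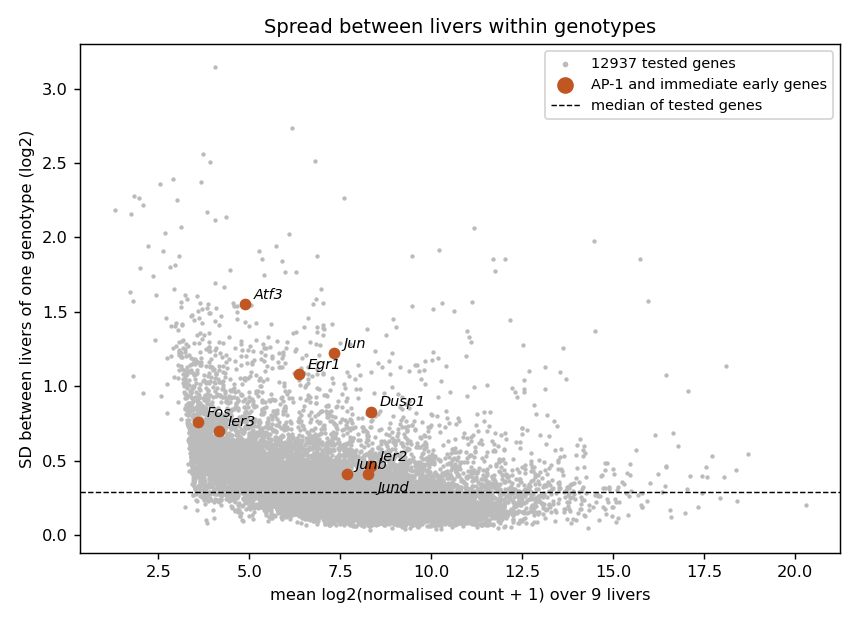
Each grey point is 1 of 12937 tested genes, by its mean log2(normalised count + 1) over the 9 livers (x) and its residual SD between livers of one genotype in log2 units (y); orange points are the 9 tested AP-1 and immediate early genes and the dashed line is the median SD of 0.291. All 9 orange points lie above the line, Atf3 highest at 1.55.

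Promoter sequence is shown for Jun, Fos and Atf3, whose proteins pair in AP-1 and which were high in both wild type 3 and Msr1-/- 2, and for Dusp1, high in Msr1-/- 2 alone. Ier3, high in the same livers, is not printed, and its window held no match to the motifs searched. The sequences are RefSeq's for GRCm38.p6, the assembly family of mm10, written 5′ to 3′ along the gene's strand and ending at the base before the RefSeq start; 8 of the 10 genes matched an entry. Capitals mark matches, on either strand, to TGANTCA (the AP-1 site), TGACGTCA (the cAMP response element), TGACATCA, TTACGTCA or the CArG box bound by serum response factor. These motifs were chosen with the sequences in view. The first is Jun at chr4:95052223-95052472 (minus strand), followed by Fos at chr12:85473640-85473889 (plus strand), Atf3 at chr1:191183334-191183583 (minus strand) and Dusp1 at chr17:26508473-26508722 (minus strand).
Jun: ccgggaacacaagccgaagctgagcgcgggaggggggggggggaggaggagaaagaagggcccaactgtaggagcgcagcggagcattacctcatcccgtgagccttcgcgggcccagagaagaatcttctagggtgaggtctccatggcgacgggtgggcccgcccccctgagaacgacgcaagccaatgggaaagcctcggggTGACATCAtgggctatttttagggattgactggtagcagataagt
Fos: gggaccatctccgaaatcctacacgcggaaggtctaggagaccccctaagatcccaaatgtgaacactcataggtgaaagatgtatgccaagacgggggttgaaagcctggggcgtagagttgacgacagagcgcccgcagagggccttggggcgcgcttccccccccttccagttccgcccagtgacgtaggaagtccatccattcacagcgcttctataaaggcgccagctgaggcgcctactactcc
Atf3: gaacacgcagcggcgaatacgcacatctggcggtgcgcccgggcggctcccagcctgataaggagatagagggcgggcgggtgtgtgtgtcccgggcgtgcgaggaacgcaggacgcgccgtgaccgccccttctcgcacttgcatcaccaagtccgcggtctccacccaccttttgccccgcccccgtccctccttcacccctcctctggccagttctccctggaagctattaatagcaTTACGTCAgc
Dusp1: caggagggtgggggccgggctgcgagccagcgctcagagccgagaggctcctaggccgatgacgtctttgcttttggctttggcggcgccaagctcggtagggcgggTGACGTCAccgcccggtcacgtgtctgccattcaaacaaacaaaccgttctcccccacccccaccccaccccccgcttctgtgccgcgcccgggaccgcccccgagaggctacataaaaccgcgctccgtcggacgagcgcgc
Jun carries TGACATCA from position -45 to -38, counted from the start, Dusp1 carries TGACGTCA from -143 to -136, and Atf3 carries TTACGTCA from -10 to -3. Among 32851 promoters of the same 250 bases, 2.93%, 1.55% and 0.447% hold these 3 motifs. Neither TGANTCA, found in 6.75% of promoters, nor a CArG box, found in 1.47%, occurs in these 4 windows. Sites farther upstream than 250 bases, and other variants of these motifs, were not searched. The window of Fos has none of the 5 motifs, but it holds TGACG, found in 17.8% of promoters and part of TGACGTCA, at -129 and at -66. The RefSeq starts of Atf3 and Dusp1 lie inside longer GENCODE gene models, so other starts of these genes have other promoters. These matches describe letters only, and no binding was measured.

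The other genes of the pathway were described by 5 lists, of which 94 genes could be tested. None passed an adjusted p under 0.05 in limma, where 1.37% of all genes did, none did in edgeR, and 4 did in DESeq2 (Map3k1, Spp1, Cd44 and Cxcl1, all lower, against 5.98% of all genes). Without adjustment 12 were lower and 0 higher at a limma p under 0.05, against 8% and 7.3% of all tested genes. The medians of the lists stood beside a median of 0.02 over all tested genes.

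Of 12 tested AP-1 relatives and other zipper subunits, 5 were positive and 7 negative (median log2 fold change -0.18, and -0.07 without wild type 3). Batf3, needed for one class of dendritic cells, stood at 27.7 ± 3.24 against 14.6 ± 7.18 (limma adjusted p = 0.174), and Batf, a lymphocyte AP-1 factor, at 17.4 ± 9.12 against 7.63 ± 2.80 (adjusted p = 0.273). Atf2 (364 ± 26.7 against 304 ± 37.8) and Maf (427 ± 23.0 against 368 ± 22.4) did not pass either (limma adjusted p = 0.315 and 0.333), although the genotypes did not overlap for Maf, as in 7.29% of all tested genes. Fosl2, a Fos relative, had a log2 fold change of 0.01 (limma adjusted p = 0.991) and was high in the same livers as Jun, at 174 in wild type 3 and 193 in Msr1-/- 2, against 68.4 to 120 in the other 7.

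Among 13 other immediate early factors (5 positive, 8 negative, median -0.15), Myc stood at 115 ± 54.3 against 53.1 ± 16.9 (limma adjusted p = 0.32). Klf6 stood at 243 ± 250 against 115 ± 28.1 and Ier5 at 105 ± 55.9 against 69.6 ± 10.3, and their log2 differences of -0.64 and -0.47 were -0.03 and -0.15 without wild type 3. Nfil3 stood at 218 ± 47.9 against 266 ± 51.4 (limma adjusted p = 0.524). Of 26 feedback and signalling genes, 12 were positive and 14 negative (median -0.12, and 0.09 without wild type 3). The RNA decay factor Zfp36, whose targets include cytokine transcripts, stood at 751 ± 68.3 against 985 ± 242, and Nfkbiz at 198 ± 19.7 against 161 ± 17.4 (limma adjusted p = 0.345 and 0.31). The growth brake Btg2 stood at 284 ± 336 against 82.5 ± 22.01 and the GTPase gene Rhob at 388 ± 151 against 273 ± 37.7 (limma adjusted p = 0.334 and 0.355), with wild type 3 at 786 of Btg2 and the other 8 livers between 62.1 and 157.5.

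Upstream, the 28 tested MAP kinase and serum response genes had 21 positive and 7 negative log2 fold changes (median 0.09). Map3k1, a kinase at the head of the JNK cascade, stood at 222, 211, 269 and 239 in wild type and at 179, 163, 123, 130 and 164 in Msr1-/-, without overlap. Its log2 fold change of -0.64 ± 0.15 just missed the threshold in limma (adjusted p = 0.0613) and in edgeR (0.0563), was called by DESeq2 (adjusted p = 0.00379), and was -0.57 without wild type 3 (limma adjusted p = 0.0531). The p38 gene Mapk11 (30.3 ± 5.00 against 19.1 ± 0.949) and the SRF cofactor gene Mkl1 (114 ± 10.2 against 87.6 ± 14.9) did not pass (limma adjusted p = 0.176 and 0.263), nor did the kinase gene Rps6ka1 (207 ± 47.1 against 244 ± 29.99, adjusted p = 0.525). Mapk11 and Mkl1 did not overlap between the genotypes, as 7.29% of all tested genes did not, whereas Rps6ka1 did. The JNK genes themselves, Mapk8 and Mapk9, had log2 fold changes of 0.12 and 0.14 (limma adjusted p = 0.756 and 0.551); they were picked out after their values were seen.

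Among 15 AP-1 target genes of injury and matrix, 13 were negative and 2 positive (median -0.66, and -0.12 without wild type 3, the highest liver for 13 of the 15). Cxcl1, a neutrophil chemokine, stood at 198, 303, 201 and 229 in wild type and at 129, 68.5, 153, 109 and 119 in Msr1-/-, a log2 fold change of -1.03 ± 0.23 (limma adjusted p = 0.0525). The genotypes did not overlap, and Msr1-/- 2, which held the most Jun of its genotype, held the least Cxcl1. Spp1, encoding osteopontin, stood at 802 ± 469 against 338 ± 102, the hyaluronan receptor gene Cd44 at 208 ± 122 against 93.3 ± 12.5 and the galectin gene Lgals3 at 353 ± 330 against 113 ± 9.02 (limma adjusted p = 0.101, 0.12 and 0.153). For Spp1, Cd44 and Lgals3, too, the genotypes did not overlap, as in 7.29% of all tested genes. In the 8 livers left without wild type 3, Cxcl1, Cd44 and Lgals3 were lower in Msr1-/- (log2 differences -1.09, -0.65 and -0.73; limma adjusted p = 0.024, 0.0493 and 0.0155), where 2.35% of all genes were called lower, and Spp1 did not pass (adjusted p = 0.0533). With Msr1-/- 2 left out too, Cxcl1 and Lgals3 passed (limma adjusted p = 0.032 and 0.0411, against 1.25% of genes called lower) and Cd44 did not (0.0596). Macrophages express several of these targets. The summed levels of 13 Kupffer cell markers ran from 8618 to 18425 in wild type and from 5343 to 7145 in Msr1-/-, and those of 10 lipid-associated macrophage markers from 5094 to 13972 and from 3643 to 4463, with no marker at 0 in all livers; their part in these values was not tested.

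The livers with high AP-1 transcripts differed from each other in what else was high. Wild type 3 was the highest wild-type liver for 6 of the 9 tested AP-1 and immediate early genes, against 37.2% of all tested genes. Msr1-/- 2 was the highest of its genotype for 7 of the 9, against 13.6% of all tested genes. Across all 9 livers the top place went to wild type 3 for Jun, Fos, Atf3, Egr1 and Ier3 (5 of 9, against 26.5% of genes) and to Msr1-/- 2 for Junb, Jund and Dusp1 (3 of 9, against 4.73%). These shares describe single animals and carry no test. The animals were singled out after the values of these same genes were seen, so high shares follow in part from that choice.

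In Msr1-/- 2 the heat shock genes were high as well. It held the highest value of the 9 livers for 6 of 11 heat shock genes, against 4.73% of all tested genes, among them the chaperone genes Dnajb1 (618, against 249 to 369.5 in the other 8 livers) and Hsph1 (1044, against 314 to 664). Hspa1b, an inducible HSP70 gene with a near-identical copy in Hspa1a, reached 541 there against 30.7 to 105.5 elsewhere. Among other immediate early genes, the nuclear receptor gene Nr4a1 and the kinase gene Sik1, reached 357 and 751 against 9.54 to 48.6 and 88.0 to 267. Hspa1b, Nr4a1 and Sik1 were picked out after their values were seen.

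Wild type 3 differed from the other livers in its clock transcripts. It was the lowest liver for 11 of 15 tested clock genes, against 25.5% of all tested genes. The clock output gene Dbp stood at 129 there against 486 to 1026 in the other 8 livers, and Hlf at 297 against 692 to 1001. Per3 stood at 58.8 against 382 to 953, whereas Arntl, which encodes a clock activator, stood at 163 against 11.8 to 48.8 (both picked out after their values were seen). Between genotypes 0 of 15 clock genes passed in limma, edgeR or DESeq2, against 1.37%, 1.43% and 5.98% of all tested genes. An unadjusted limma p under 0.05 was found for 0 of the 15, against 15.3% of all tested genes. The limma adjusted p was 0.416 for Cry1, 0.499 for Nr1d1, 0.538 for Dbp and 0.398 for Hlf. Wild type 3 also had the highest summed markers of Kupffer cells (18425 against 8618 to 11525 in the other wild-type livers) and stellate cells (11789 against 4442 to 5066), and likewise of lipid-associated macrophages, monocytes (5391 against 954 to 1557) and cholangiocytes (1864 against 797 to 1009). Most of that cholangiocyte sum was Spp1, also a lipid-associated macrophage marker, at 1505 against 551 to 600.5 in the other wild-type livers. Of the 13 Kupffer cell markers, 10 were highest in wild type 3 among the wild-type livers. Cd163 (14.9 against 111 to 365) and Timd4 (119 against 148 to 207.5) were lowest there, and Clec4f (1845 against 1634 to 2638) lay between. In wild type 3 the summed markers of hepatocytes were the lowest of the 9 livers, and those of T and NK cells (145 against 208 to 281) and of B cells (584 against 789 to 976) the lowest in wild type. Most of that hepatocyte sum was Alb (978400 of 1553644). Of the 10 hepatocyte markers tested, 5 were lowest of the 9 livers in wild type 3. Apob was highest there among wild-type livers (71430 against 43700 to 64160). In Kupffer and stellate markers Msr1-/- 2 stood at 7145 and 4071, the highest and the lowest of its genotype. The part of these transcripts and markers in the AP-1 levels was not tested.

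**Figure D4:**
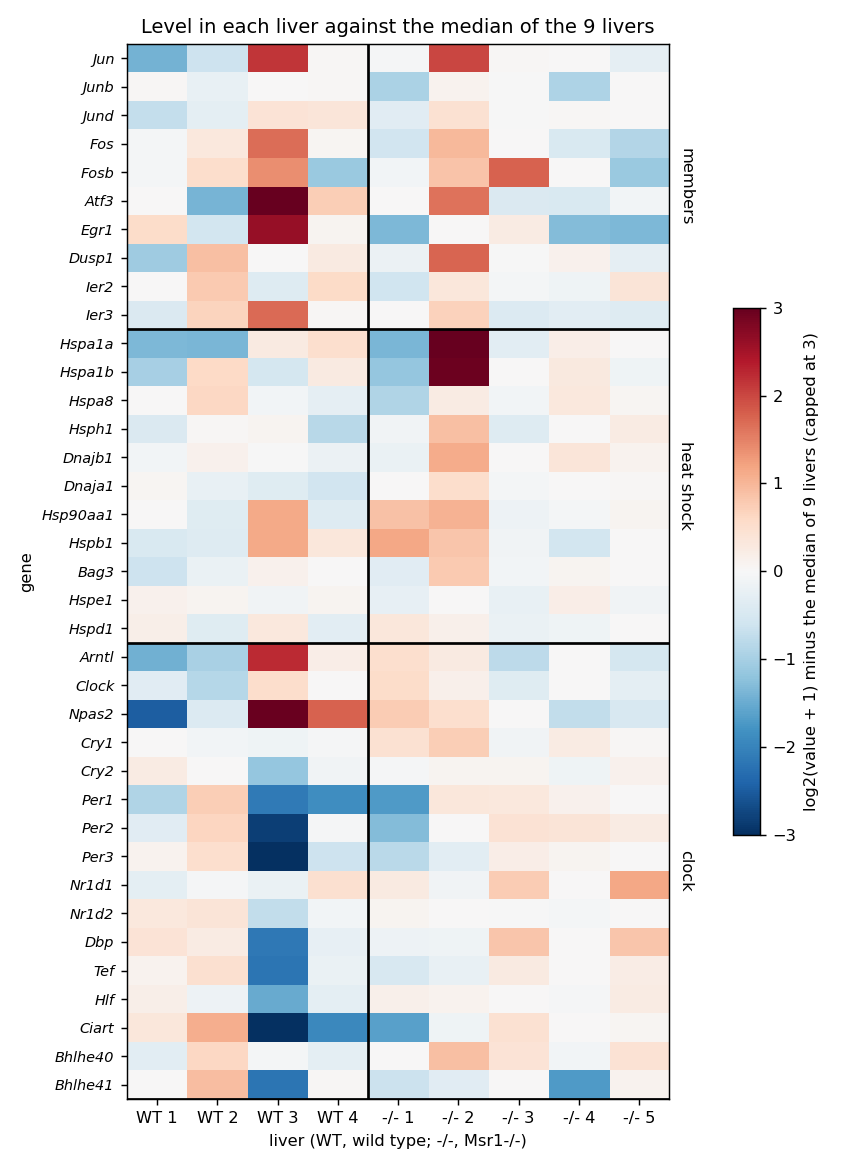
Rows are the 10 AP-1 and immediate early genes, 11 heat shock genes and 16 clock genes, columns the 9 livers; colour is log2(value + 1) minus the gene's median over the 9 livers, red above and blue below, capped at 3. Wild type 3 and Msr1-/- 2 are both red for Jun, Fos and Atf3, but only Msr1-/- 2 is dark red for Hspa1a and Hspa1b and only wild type 3 is dark blue for Per2, Per3 and Ciart.

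The genes whose pattern over the 9 livers was most like that of the 9 tested genes together (their mean z-score) were Ctbp1 (Pearson r = 0.915), Ube2s (0.894), Fosl2 (0.877), Rpia (0.870) and Bysl (0.864). They come from the 12937 genes with the 9 themselves, and features named Gm with a number or ending in Rik, left out. With the genotype means taken out, Fosl2 (r = 0.926), Bag3 (0.915), Il1b (0.915), Ctbp1 (0.909) and Spi1 (0.900) led. Over the 7 livers left without wild type 3 and Msr1-/- 2, r with the mean z-score, genotype means kept in, was 0.835 for Ctbp1 and 0.921 for Rpia but 0.346 for Bysl, and 0.414 for Bag3, for which it was 0.702 over 9 livers. For Fosl2, itself an AP-1 subunit and the closest gene once genotype was set aside, this r was 0.664. These values rank genes over 9 livers and carry no p.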

How the data were processed

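Liver RNA of 4 wild-type and 5 Msr1-/- mice was sequenced from TruSeq RNA v2 libraries, per the labels' protocols; groups and animal numbers came from the titles. Per the submitters' processing notes, STAR, HTSeq, DESeq2 and mm10 were used; their versions and the strand setting of the counting are not given in the sources used here. The authors deposited a signal per gene and liver, read counts divided by a size factor. Every value was a whole multiple of a step (100% within 0.01 reads), so reads were recovered, 15006773 to 18238932 per liver; the step of Msr1-/- 5 lies close to 1 and was read with all its decimals. No gene had under 10 reads in total. The spread between animals, which depth does not remove, limits the precision, and for Fos, Fosb and Ier3 counting error does too.

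Values were tested as log2(value + 1) in limma 3.58.1 (R 4.3.3, intensity trend, genotype as the only term, Benjamini-Hochberg over 12937 genes with a mean of 10 or more). Alternatives were edgeR 4.0.16 and DESeq2 1.42.0 on recovered reads, pseudocounts, filters, scalings, array weights, a block and each liver left out (the last on the same 12937 genes). Fits without wild type 3 and Msr1-/- 2 together, and edgeR and DESeq2 without wild type 3, were added after seeing the data. The limma fit was tested on simulated data. No 2 libraries were duplicates (chi-square per degree of freedom of at least 21.6). Coordinates are GENCODE M21 (GRCm38). The genes and lists were chosen with earlier results of these data known. Named were the 10 genes, up to 4 of smallest p per pathway or context list, and the 5 most like in pattern under each of 2 measures; others are said to be picked out after their values were seen. Exon lengths are unions over GENCODE transcripts.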

Additional observations from a re-analysis of the deposited data

Results flagged for a closer look

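In 9 of the 20 genotype groups of the 10 genes, 1 liver lay far from the others by Dixon's test of the gap over the range, run on normalised counts. For normally distributed values, chance flags about 1 group in 20 by this test. High values stand out less on the log2 scale, on which the test was not run. The 10 genes share the same 9 livers, so these flags are not independent. Wild type 3 was far above the other wild-type livers for Jun (611.9 against 51.3 to 141.4), Fos (34.5 against 9.62 to 12.7), Atf3 (287.1 against 7.39 to 36.0) and Egr1 (546.0 against 60.1 to 129.4). Msr1-/- 2 was far above its group for Jun (558.8 against 114.2 to 142.5), Atf3 (67.5 against 15.2 to 21.2) and Dusp1 (970.8 against 239.4 to 312.2). It was also flagged for Ier3 (24.5 against 10.96 to 14.8), but only just, at a gap over the range of 0.713 against a limit of 0.71. That flag rests on 25 reads against 10 to 14. Wild type 2 was below the other wild-type livers for Junb (201.5 against 236.1 to 242.9), a small difference beside the spread of the other genes.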

How the results depend on the processing

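The count of AP-1 and immediate early genes called was 0 in each of the 22 alternative fits. The sign of Junb, Fos, Egr1, Ier2 and Ier3 held in all of them, though the filters and the replicate block gave no new log2 fold change. The ranges of these genes with 1 liver left out were -0.4388 to -0.1734 (Junb), -0.9781 to -0.2926 (Fos), -1.834 to -0.7803 (Egr1), -0.4621 to -0.07445 (Ier2) and -0.8867 to -0.1764 (Ier3). Signs turned for Jun in edgeR (-0.0563) and DESeq2 (-0.0448), for Atf3 with array weights (0.1643) and, without wild type 3, in edgeR (0.3506) and DESeq2 (0.362), and for Dusp1 without wild type 3 and Msr1-/- 2 together (-0.1286). Leaving out 1 liver gave log2 fold changes of -0.1699 (without wild type 1) to 1.013 (without wild type 3) for Jun and -0.1318 to 0.2471 (the same livers) for Jund, both also negative without Msr1-/- 2 (-0.1026 and -0.0168). Atf3 reached -1.675 in edgeR and -1.663 in DESeq2. The range with 1 liver left out was -1.349 (without wild type 2) to 0.3514 (without wild type 3) for Atf3, -0.1178 (without Msr1-/- 2; -0.1152 without wild type 1) to 0.5433 (without wild type 2) for Dusp1, and -0.3285 (without wild type 4) to 0.5091 (without wild type 3) for Fosb, with -0.0383 and -0.2656 without Msr1-/- 2 and 3. Over the whole table, 86 genes were called higher and 91 lower; DESeq2 called 307 and 466, array weights 277 and 254, a filter at a mean of 50 or more 58 lower, limma without both high livers 167 and 162, and edgeR and DESeq2 without wild type 3 304 and 353, and 542 and 524. Leaving out 1 liver moved these counts to between 19 and 338 higher and 17 and 304 lower, with the highest without wild type 3 and the lowest without Msr1-/- 2; the causes were not tested. With the animal number as a replicate block, 8 were higher and 0 lower in limma. Deviations of same-numbered animals correlated at 0.025, -0.077, -0.1 and 0.22, and 1 of 4 wild-type animals correlated best with its own number, so the numbers were not taken to pair animals. TMM and quantile scaling moved the median of all genes from 0.0174 to 0.0216 and 0.0207. Fos and Fosb are limited by depth. The intervals given for all 9 livers leave room for differences of over 2-fold in Jun, Fos, Atf3, Egr1, Dusp1 and Ier3.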
